A study of Mus musculus with 13 samples.

Results

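The 10 genes described here belong to the transcriptional response to low oxygen: Hif1a, Egln3, Slc2a1, Hk2, Pgk1, Vegfa, Adm, Bnip3, Ndrg1 and Car9. They were taken from the gene list of the files by symbol, and all 10 of the 10 symbols were found among 32285 genes. Their unique molecular identifiers (UMIs, one per captured transcript) were summed over the cells of each library and each cell class.

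The data are droplet-based 3′ single-cell RNA sequencing of 10 colon tumors and 3 samples of adjacent colonic mucosa from 3 mice. All groups shared the strain C57BL/6J, the genotype ApcMin/+; p16cis/cis, that is an Apc mutation together with an epimutation of p16, and a diet supplemented with choline, betaine, folic acid and vitamin B12; no control-diet library was analysed here. Mouse A was 24 weeks old and gave 4 tumors (tumors 5 to 8) and mucosa 2, mouse B was 23 weeks old and gave 2 tumors (9 and 10) and mucosa 3, and mouse C was 20 weeks old and gave 4 tumors (1 to 4) and mucosa 1. Several tumors therefore come from 1 animal, and p-values between tissues measure the spread between tumors and mucosa samples of 3 mice. Mucosa was dissociated with EDTA and TrypLE and tumors with a tumor dissociation kit, so tissue and dissociation cannot be told apart. The labels call 7 libraries female and 6 male, and 2 of the 3 animals carry both labels; Xist reached at most 0.12 UMIs per 1000000 UMIs of a library (CPM) in any of them and Y-linked genes lay at 103.37 to 129.9 CPM in every one, so sex was not used.

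After filtering, 106735 of 137591 barcodes were retained as cells, 85137 from tumors and 21598 from mucosa, in 36 clusters that were built without the 10 genes and without related pathway genes. Library totals over all deposited barcodes were 57221300 to 93157039 UMIs in tumors and 84883382 to 116133079 UMIs in mucosa. The retained cells, which were summed and tested, held 656125330 UMIs over the 10 tumors and 216665480 over the 3 mucosa samples. Their median was 3582 to 4989 UMIs per cell in tumors and 6890.5 to 9112 in mucosa. Epithelial cells were 17.0% to 27.8% of the cells of a tumor and 50.7% to 76.4% of the cells of a mucosa sample. Among retained cells, 1398 barcode sequences occurred in 2 or more libraries, and a pair of libraries shared at most 34.

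In the response to low oxygen, the HIF-1α protein, encoded by Hif1a, is hydroxylated by prolyl hydroxylases while oxygen is present and is then degraded through VHL. When oxygen falls, HIF-1α accumulates, pairs with ARNT and binds DNA at a short core sequence to switch on genes of glucose uptake and glycolysis, of blood vessel growth, of mitochondrial turnover and of acid handling. The protein is therefore controlled mostly after transcription, so Hif1a RNA does not report HIF activity by itself, and several of its targets are used to read it. In the colon, the surface epithelium normally lies in low oxygen next to the lumen.

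The core bound by HIF, ACGTG or GCGTG on either strand, was searched in RefSeq promoter windows of the build GRCm38.p6, each running from 250 bases before to 50 bases after a transcription start. Windows were present for 9 of the 10 genes, Ndrg1 being the exception. These genes had 10 start sites with a window, Vegfa having 2. ACGTG was found in 8 of the 10 windows, against 19.6% of 32851 promoters, GCGTG in 4 of 10, against 32.4%, and at least 1 of these cores in 9 of 10, against 43.8%. The start of Vegfa at the gene's 5′ end had no core in its window, and both Vegfa cores lay in the window of a second start inside the gene. The only window of Hif1a, with 3 ACGTG matches, also lay inside the gene. It began at 73907617, where the gene begins at 73901375. A match of 5 letters is a description of the sequence and not evidence that it is bound. The 250 bases before the start are shown for Bnip3, Egln3 and Hk2, by whose UMIs single cells are compared below, and for Adm, whose window held only GCGTG; they are written 5′ to 3′ on the strand of the gene, with the cores of either strand in capitals, so that CACGT and CACGC are the reverse complements of ACGTG and GCGTG.
Bnip3, chr7:138909507-138909756, minus strand: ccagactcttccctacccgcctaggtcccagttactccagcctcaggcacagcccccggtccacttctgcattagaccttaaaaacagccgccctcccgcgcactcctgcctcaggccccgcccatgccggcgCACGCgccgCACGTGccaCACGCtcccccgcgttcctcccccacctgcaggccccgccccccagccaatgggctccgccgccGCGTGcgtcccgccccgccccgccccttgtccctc
Egln3, chr12:54203875-54204124, minus strand: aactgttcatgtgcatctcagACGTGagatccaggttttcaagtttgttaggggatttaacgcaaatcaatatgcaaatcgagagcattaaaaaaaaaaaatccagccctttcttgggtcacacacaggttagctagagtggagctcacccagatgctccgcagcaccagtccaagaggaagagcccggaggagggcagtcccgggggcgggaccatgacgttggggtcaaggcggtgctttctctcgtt
Hk2, chr6:82774455-82774704, minus strand: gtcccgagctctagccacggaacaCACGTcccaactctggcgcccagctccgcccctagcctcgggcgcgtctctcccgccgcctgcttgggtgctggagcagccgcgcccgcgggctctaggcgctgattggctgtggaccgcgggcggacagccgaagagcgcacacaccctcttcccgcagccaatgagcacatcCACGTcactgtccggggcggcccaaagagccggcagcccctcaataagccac
Adm, chr7:110627407-110627656, plus strand: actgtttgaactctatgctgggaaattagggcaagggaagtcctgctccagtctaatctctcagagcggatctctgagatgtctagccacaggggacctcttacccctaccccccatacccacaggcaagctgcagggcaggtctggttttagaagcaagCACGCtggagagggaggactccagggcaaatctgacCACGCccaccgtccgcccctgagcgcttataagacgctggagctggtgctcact

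Bnip3 had the densest set, with 5 matches from -117 to -35 of the start, of which those at -108 and -107 are the same CACGTG read on both strands. Egln3 had 1 match at -229, Hk2 had matches at -226 and -52, and Adm had matches at -90 and -54. The last bases of the Bnip3 window lie within the gene as GENCODE draws it.

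Between tumors and mucosa, taken over all cells of a library, 5 of the 10 genes were higher in tumors and 2 were lower, where 36.1% of 17522 genes tested were called higher and 33.4% lower. Restricted to epithelial cells, 6 of 10 were higher and 2 lower, where 33.6% of 15523 genes were called higher and 30.1% lower. With calls this common among all genes, the counts alone say little about the 10 genes, and the pattern among them is given gene by gene. Levels are CPM of the summed UMIs, and fold changes are tumor over mucosa on the log2 scale with TMM scaling between libraries. In epithelial cells the median of all genes was 0.05 with TMM and 0.31 with library totals as scaling, and the share of calls that were higher in tumors was 52.8% and 69.6%, so epithelial fold changes of that order depend on the scaling. In sums over many cells, more cells that carry a transcript and more transcript per cell cannot be told apart.

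**Figure D1:**
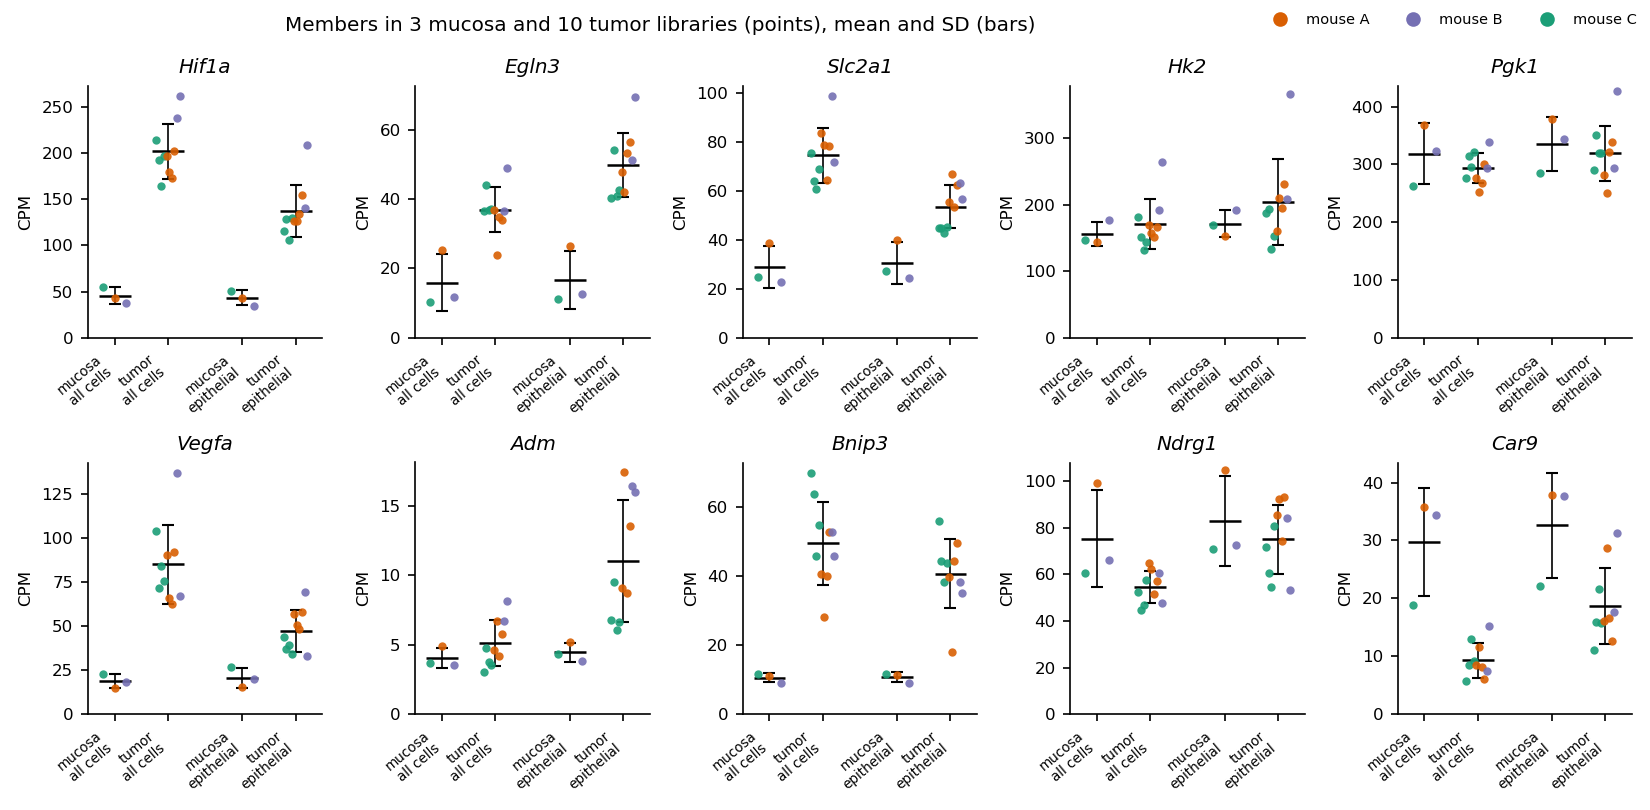
Each panel plots 1 gene in CPM for the sums over all cells and over epithelial cells, with a point per library colored by mouse and bars for mean and SD of 3 mucosa and 10 tumor libraries. Hif1a, Vegfa, Slc2a1 and Bnip3 separate the tissues in both sums, Hk2 and Pgk1 overlap in both, and Car9 is lower in every tumor than in any mucosa sample over all cells.

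Hif1a (ENSMUSG00000021109, GRCm38 chromosome 12, 73901375 to 73947530, plus strand) encodes the oxygen-regulated subunit. Over all cells it was at 55.4, 43.5 and 37.6 CPM in mucosa 1, 2 and 3, and in tumors from 164 to 261 CPM with a median of 197. Every tumor was above every mucosa sample, and the change was 2.15 ± 0.17 (log2, SE; adjusted p = 1.8e-07, edgeR). In epithelial cells mucosa was at 51.0, 43.4 and 34.8 CPM and tumors at 106 to 209 CPM with a median of 129, again without overlap, and the change was 1.41 (adjusted p = 4.8e-05).

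Egln3 (ENSMUSG00000035105, chromosome 12, 54178981 to 54203860, minus strand) encodes the prolyl hydroxylase PHD3, itself a HIF target. Over all cells mucosa was at 10.3, 25.3 and 11.9 CPM and tumors at 23.8 to 48.8 CPM with a median of 36.8. Tumor 6, the lowest, fell below mucosa 2, and the change was 1.2 ± 0.26 (adjusted p = 0.000917). In epithelial cells mucosa was at 11.3, 26.4 and 12.7 CPM and every tumor was higher, at 40.4 to 69.5 CPM with a median of 49.5 (1.30, adjusted p = 0.00063).

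The 3 genes of glucose use did not move together. Slc2a1 (ENSMUSG00000028645, chromosome 4, 119108711 to 119137983, plus strand) encodes the glucose transporter GLUT1. Over all cells mucosa was at 24.8, 38.6 and 22.8 CPM and tumors at 60.9 to 98.8 CPM with a median of 73.7, without overlap (1.37 ± 0.19, adjusted p = 2.8e-05). In epithelial cells the gap was narrower: mucosa was at 27.2, 40.1 and 24.3 CPM and tumors at 42.7 to 66.7 CPM with a median of 54.3. The epithelial change of 0.54 (adjusted p = 0.0121) was not called without mucosa 1 (0.45, adjusted p = 0.0617) or without mucosa 3 (0.40, adjusted p = 0.0843), nor with the tumors of each mouse summed (0.57, adjusted p = 0.0560).

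Hk2 (ENSMUSG00000000628, chromosome 6, 82725025 to 82774454, minus strand) encodes hexokinase 2, the enzyme that commits glucose to metabolism. Over all cells mucosa was at 147, 145 and 176 CPM and tumors at 132 to 264 CPM with a median of 162, and the groups overlapped (0.13, adjusted p = 0.546). Pgk1 (ENSMUSG00000062070, chromosome X, 106187100 to 106203699, plus strand) encodes phosphoglycerate kinase of glycolysis and was at 263, 368 and 324 CPM in mucosa and 252 to 338 CPM in tumors, with a median of 295 (-0.13, adjusted p = 0.340). Neither passed the test in epithelial cells. Epithelial Hk2 was at 170, 153 and 192 CPM in mucosa and 134 to 367 CPM in tumors with a median of 194, tumor 10 being the highest (-0.01, adjusted p = 0.966). Epithelial Pgk1 was at 285, 378 and 343 CPM in mucosa and 251 to 427 CPM in tumors with a median of 320 (-0.33, adjusted p = 0.0722); it was called lower without tumor 10 (-0.40, adjusted p = 0.0104), without mucosa 1 (-0.45, adjusted p = 0.0419) and without goblet-like cells (-0.39, adjusted p = 0.0423).

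Of the 2 secreted factors, Vegfa (ENSMUSG00000023951, chromosome 17, 46016993 to 46032369, minus strand) encodes the growth factor of blood vessels. Over all cells mucosa was at 23.0, 14.7 and 18.5 CPM and tumors at 62.8 to 137 CPM with a median of 79.6. All tumors lay above all mucosa samples, and the change was 2.18 ± 0.25 (adjusted p = 4.8e-06). In epithelial cells the change was less than that, 0.91 (adjusted p = 0.00249), from 26.7, 15.3 and 20.1 CPM in mucosa to 33.2 to 69.3 CPM in tumors with a median of 46.1. Adm (ENSMUSG00000030790, chromosome 7, 110627661 to 110629820, plus strand) encodes adrenomedullin, a peptide that acts on vessels. Over all cells it was rare in both tissues, at 3.70, 4.89 and 3.57 CPM in mucosa and 3.02 to 8.17 CPM in tumors with a median of 4.71 (0.33, adjusted p = 0.300); with a 10% limit on mitochondrial UMIs it was called higher (0.82, adjusted p = 0.0469). In epithelial cells it was at 4.34, 5.19 and 3.84 CPM in mucosa and at 6.05 to 17.4 CPM in tumors with a median of 9.30, without overlap (1.03, adjusted p = 0.0167). That call was lost without goblet-like cells (0.59, adjusted p = 0.142), without mucosa 1 (1.01, adjusted p = 0.0528) and without mucosa 3 (0.93, adjusted p = 0.0708).

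Bnip3 (ENSMUSG00000078566, chromosome 7, 138890836 to 138909519, minus strand) encodes a mitochondrial protein that marks mitochondria for removal. Over all cells mucosa was at 11.6, 11.2 and 9.02 CPM and tumors at 28.2 to 69.8 CPM with a median of 49.3. The lowest tumor, tumor 6, was still above the highest mucosa sample, and the change was 2.22 ± 0.25 (adjusted p = 3.8e-06). In epithelial cells mucosa was at 11.7, 11.4 and 9.10 CPM and tumors at 18.0 to 55.8 CPM with a median of 41.7, also without overlap (1.65, adjusted p = 9.0e-05).

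The last 2 genes ran the other way. Ndrg1 (ENSMUSG00000005125, chromosome 15, 66929318 to 66969640, minus strand), a gene induced by stress and differentiation, was over all cells at 60.6, 99.1 and 66.2 CPM in mucosa and at 44.6 to 65.0 CPM in tumors with a median of 54.8. The groups overlapped, and the change of -0.48 ± 0.15 (adjusted p = 0.0122) was not called without mucosa 2 (-0.21, adjusted p = 0.200), with a 10% mitochondrial limit (-0.21, adjusted p = 0.268) or with the tumors of each mouse summed (-0.46, adjusted p = 0.0948). Its epithelial change of -0.42 (adjusted p = 0.0340) depended on the setting. It was not called without mucosa 2 (-0.21, adjusted p = 0.305), with library totals as scaling (-0.14, adjusted p = 0.505) or with a 10% mitochondrial limit (-0.13, adjusted p = 0.554). Nor was it called with summed tumors (-0.44, adjusted p = 0.0771), doublets kept (-0.30, adjusted p = 0.0966) or without goblet-like cells (-0.31, adjusted p = 0.186).

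Car9 (ENSMUSG00000028463, chromosome 4, 43506966 to 43513729, plus strand) encodes carbonic anhydrase IX, a membrane enzyme that handles acid and is widely used as a tissue marker of low oxygen. Over all cells it was at 18.9, 35.8 and 34.4 CPM in mucosa and at 5.73 to 15.2 CPM in tumors with a median of 8.50. Every tumor was below every mucosa sample, and the change was -1.69 ± 0.25 (adjusted p = 4.5e-05). In epithelial cells mucosa was at 22.1, 37.9 and 37.7 CPM and tumors at 11.1 to 31.2 CPM with a median of 16.4; the groups overlapped, and the change was -1.06 (adjusted p = 0.00414).

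The epithelial cells of the tissues were mostly of different clusters, and the part of this in the epithelial changes was not tested. Clusters 1 and 3 held 8087 and 5471 tumor cells and 29 and 4 mucosa cells, whereas clusters 13, 20 and 21 held 3293, 1280 and 1245 mucosa cells and 32, 26 and 2 tumor cells. Car9 was at 28.2, 31.2 and 41.8 CPM (mean over 3 mice, as for the other levels here) in mucosa clusters 13, 20 and 21 and at 14.1 and 6.67 CPM in tumor clusters 1 and 3, while in classes held by both tissues it was at 14.4 CPM in tumors and 14.8 CPM in mucosa for goblet-like cells and at 60.0 and 58.6 CPM for absorptive cells. Bnip3 was at 1.45, 2.42 and 6.17 CPM in those mucosa clusters and 26.2 and 57.3 CPM in those tumor clusters, and Hif1a at 18.7, 26.7 and 21.1 CPM and 139 and 103 CPM. Egln3 was at 4.09, 6.06 and 10.2 CPM and 66.1 and 35.7 CPM. Ndrg1, lower in the tumor sums, was at 6.46, 6.83 and 24.1 CPM in these mucosa clusters and 89.0 and 81.7 CPM in these tumor clusters, and its highest mucosa level was 291 CPM (2 mice), in absorptive cluster 16.

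Over all cells, 4 of the 10 genes were above mucosa in every tumor and 1 was below in every tumor, where 27.4% and 24.7% of the genes tested were. In epithelial cells these counts were 6 and 0, where 33.3% and 12.6% were.

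Markers of other cells and of handling moved with the tissue. The 7 immune markers summed to 4465 to 7082 CPM over all cells of tumors and to 358 to 1098 CPM in mucosa, and in epithelial sums to 26.9 to 88.0 CPM and 9.32 to 12.7 CPM, with none of the 7 at 0. Of 15 genes that respond to dissociation, such as Fos, Jun and heat shock genes, 14 were higher in tumors over all cells and none was lower, with a median of 2.21 on the log2 scale against 0.04 over all genes. In epithelial cells 13 of 15 were higher, with a median of 1.52. Among them Atf3, a stress transcription factor, was at 373 ± 80.1 CPM (SD, n = 10) in tumor and 24.5 ± 0.875 CPM (n = 3) in mucosa epithelium, Ier3, an immediate early gene, changed by 3.17, and the heat shock genes Hspa1a and Hspa1b changed by 4.16 and 3.08. Their part in the changes of the 10 genes was not tested.

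The other genes of the pathway, from lists chosen by role, gave no uniform direction. Of 8 HIF subunits and oxygen sensors, 3 were higher and 3 lower over all cells, and 2 were higher and 3 lower in epithelial cells. In epithelium Arnt2, a partner of HIF, rose by 2.97 (adjusted p = 0.00184) and Vhl, which carries HIF-1α to degradation, by 0.58 (adjusted p = 0.00069), whereas Epas1 and Hif3a, which encode the other HIF alpha subunits, changed by -0.96 (adjusted p = 0.00868) and -0.95 (adjusted p = 0.00653). Of the genes of glucose uptake, glycolysis and lactate, 6 of 19 tested were higher and 6 lower over all cells, and 4 of 18 were higher and 8 lower in epithelium, with a median of -0.16; with library totals as scaling the epithelial counts were 5 and 4 and the median 0.11. The lactate exporter gene Slc16a3 rose by 3.39 (adjusted p = 2.5e-07) and the regulator of glycolysis Pfkfb3 by 2.38 (adjusted p = 2.1e-06); the glucose transporter gene Slc2a3 rose by 3.43 from 6 UMIs in mucosa epithelium, and Pfkm, a phosphofructokinase of muscle type, changed by -0.89.

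Of 22 other HIF targets, 12 were higher and 5 lower over all cells, and of 21 tested in epithelium 8 were higher and 6 lower, with a median of 0.07. Pgf, a relative of Vegfa, was at 12 ± 3.70 CPM in tumor epithelium and 0.0408 ± 0.00518 CPM in mucosa (8 UMIs). Car12, another membrane carbonic anhydrase, and Fam162a, a mitochondrial protein, changed by -2.09 (adjusted p = 0.00185) and -2.0 (adjusted p = 1.1e-05), so the epithelial calls included 2 carbonic anhydrases that were lower. Of the receptors that VEGF and adrenomedullin act through, 7 of 9 were higher over all cells with a median of 2.68; in epithelial cells 2 of 7 tested were higher and 2 lower. Those 2 were Flt1, a VEGF receptor, from 7 UMIs in mucosa, and Ramp3, a partner of the adrenomedullin receptor, at 22.7 ± 10.1 CPM and 0.295 ± 0.0936 CPM; Ramp1 and Nrp2 changed by -2.04 and -1.63.

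Within single cell classes held by both tissues, the tests reached other calls than the sums over epithelial cells. Here too the scaling moved all genes. With library totals in place of TMM, the share of calls that were higher in tumors went from 50% to 34.7% in T cells, from 51.1% to 75.1% in absorptive cells, from 55.2% to 39.6% in goblet cells and from 48.1% to 6.57% in plasma cells. The median of all genes was then -0.16 in T cells, 0.35 in absorptive cells, -0.12 in dendritic cells and -0.64 in plasma cells. The class with most calls was the T cell-like class, in which all 8 of the 8 genes tested were higher in tumors, where 21.2% of 10111 genes were. Adm and Car9 were too rare to test there. Adm had 1 UMI in mucosa T cells and 15 in tumor T cells. Car9 ran the other way from the 8, at 3.76 CPM in mucosa (mean over 3 mice, 32 UMIs) and 0.697 CPM in tumors (22 UMIs). It was also higher in mucosa in B cell-like cells (2.76 and 0.618 CPM) and dendritic cell-like cells (12.1 and 2.77 CPM), with 6 mucosa UMIs in each. Neutrophil-like, NK or innate lymphoid-like, Ly6c+ monocyte-like and Spp1+ macrophage-like cells had 0 Car9 UMIs in mucosa. In T cell-like cells Hif1a was at 60.1 to 88.7 CPM in mucosa and 506 to 804 CPM in tumors with a median of 569, without overlap (3.20 ± 0.21, adjusted p = 1.3e-09). Hk2 rose by 2.89, Ndrg1 by 2.64, Slc2a1 by 1.83, Egln3 by 1.82, Vegfa by 1.54, Bnip3 by 1.09 and Pgk1 by 1.05. All 8 were also called higher with library totals as scaling, where 15.7% of all genes were.

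The T cell-like cells of the tissues were of different clusters. Of the tumor T cells, 74.9% lay in cluster 7, led by Il17a, Tnfrsf4 and Icos, and of the mucosa T cells 90.7% lay in cluster 5, led by Cd160, Gzma and Cd8a. Within cluster 5, which 6 tumors held in sufficient number, Hif1a was at 59.2 to 61.8 CPM in mucosa and 23.5 to 90.8 CPM in tumors (0.15, adjusted p = 0.772), Pgk1 changed by 0.14 (adjusted p = 0.711), and none of the 8 was called, where 10.2% and 5.41% of 2738 genes were higher and lower; 6 of the 8 were too rare there to test. Cluster 7 held too few mucosa cells for a test: 2 mucosa samples gave 289 ± 42.9 CPM of Hif1a and 10 tumors 733 ± 102 CPM.

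**Figure D2:**
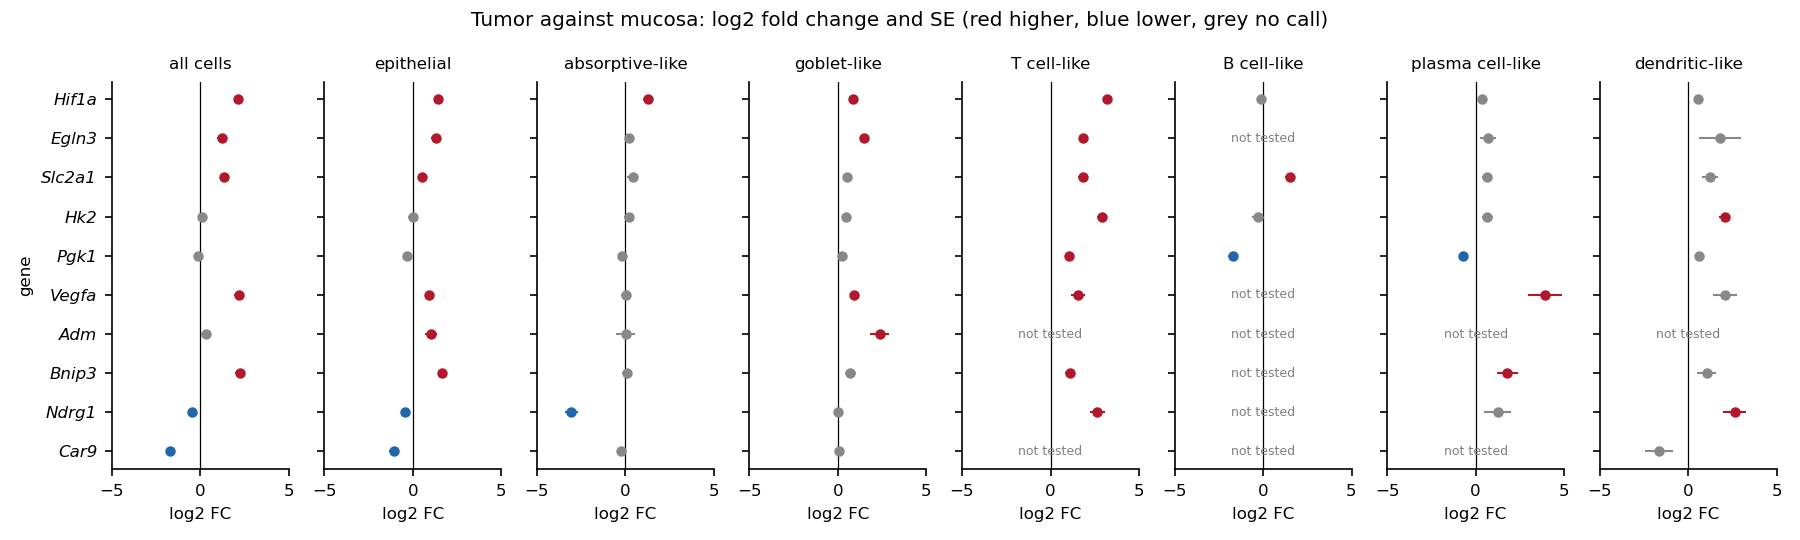
Points are log2 fold changes of tumor over mucosa with SE bars, for all cells, epithelial cells and 6 cell classes; red points were called higher, blue lower and grey neither at an adjusted p of 0.05. Hif1a is higher in 5 of these 8 comparisons, and the T cell-like column is red for all 8 genes tested.

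In absorptive epithelial-like cells 1 of 10 genes was higher and 1 lower, where 24.8% and 23.7% of 11660 genes were. Hif1a was at 71.0 to 99.4 CPM in mucosa and 154 to 381 CPM in tumors with a median of 223 (1.29, adjusted p = 0.00111). Ndrg1 went from 188, 247 and 184 CPM in mucosa 1, 2 and 3 to 11.3 to 84.9 CPM in tumors with a median of 24.6, without overlap (-3.05 ± 0.37, adjusted p = 1.5e-05). Both were called in the same direction with library totals as scaling, where Slc2a1 was called higher as well (0.70, adjusted p = 0.0476). The other 8 genes were not called. Car9, lower in the sums, was at 58.6 ± 3.30 CPM in mucosa absorptive cells and 60.3 ± 9.12 CPM in tumor absorptive cells. Its direction depended on the scaling: the change was -0.27 with TMM (adjusted p = 0.129; without mucosa 1, -0.39 and adjusted p = 0.0481) and 0.039 with library totals (adjusted p = 0.821).

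The absorptive class also differed in makeup, with 58.8% of its mucosa cells in cluster 16 and nearly all tumor cells in cluster 8. In cluster 8 alone Ndrg1 was at 30.7 ± 20.5 CPM in tumors and 125 ± 54.8 CPM in mucosa (-2.21, adjusted p = 0.000609) and Hif1a was higher (0.78, adjusted p = 0.0332). Pgk1 was lower in that cluster with TMM (-0.53, adjusted p = 0.0288), although in the whole class its sign turned with library totals (0.12, adjusted p = 0.476); in the cluster 16.9% of 11630 genes were higher and 16.4% lower. Of 17 tested genes of glucose uptake, glycolysis and lactate, 12 were lower and none was higher in tumor absorptive cells, with a median of -0.59, and with library totals 7 were lower and 2 higher, with a median of -0.28. The 15 stress genes summed to 2098 to 4947 CPM in tumor absorptive cells and 1952 to 2276 CPM in mucosa, and their part was not tested.

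In goblet-like cells, which secrete mucus, 4 of 10 genes were higher in 9 tumors and none lower, where 8.25% and 6.69% of 8629 genes were: Egln3 (1.45, adjusted p = 0.00031), Adm (2.35, adjusted p = 0.00861), Vegfa (0.93, adjusted p = 0.0132) and Hif1a (0.87, adjusted p = 0.0203). Egln3 was at 7.18 to 12.6 CPM in mucosa and 17.2 to 30.3 CPM in tumors and did not overlap. The Hif1a and Vegfa calls were lost without mucosa 2 (0.84 and 0.73) or mucosa 3 (0.74 and 0.88), and the Adm call without mucosa 3 (2.25, adjusted p = 0.0528). With doublets kept Slc2a1 was called higher as well (0.83).

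The goblet-like class also differed in makeup, with 75.2% of its mucosa cells in cluster 14, led by Retnlb, Ccn3 and Spdef, and 57.7% of its tumor cells in cluster 19, led by Zg16, Clca1 and Fcgbp. In cluster 14 alone, where 6.67% of 7483 genes were higher and 4.5% lower, the calls of Egln3 (0.91, adjusted p = 0.0827) and Vegfa (0.64, adjusted p = 0.128) were lost and Hif1a was higher (0.75, adjusted p = 0.0218). In cluster 19 alone, where 4.29% of 5174 genes were higher and 2.13% lower, the Hif1a call was lost (0.58, adjusted p = 0.118), whereas Egln3 (1.67, adjusted p = 0.0157) and Vegfa (1.32, adjusted p = 0.0195) were higher. Adm was too rare to test in either cluster.

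In B cell-like cells 4 genes were tested; Slc2a1 was higher (1.52, adjusted p = 0.00015), where 17.9% of genes were, and Pgk1 lower, at 24.8 to 106 CPM in tumors and 119 to 324 CPM in mucosa (-1.73, adjusted p = 3.9e-06), where 21.6% were. Of the B cells 99.7% in tumors and 62.1% in mucosa lay in cluster 4, and cluster 26 held 413 of mucosa and 14 of tumors. Pgk1 was at 241 to 326 CPM in cluster 26 of 3 mucosa samples, at 98.5 and 114 CPM in cluster 4 of mucosa 1 and 3, and at 26.7 to 96.4 CPM in cluster 4 of tumors. For Slc2a1 these values were 0 to 15.2 CPM, 12.2 and 27.4 CPM, and 18.9 to 55.8 CPM. Mucosa 2 had too few cells in cluster 4 for a test.

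In dendritic cell-like cells Hk2 was higher (2.06 from 19 mucosa UMIs, adjusted p = 0.00031), as was Ndrg1 (2.63 from 8 mucosa UMIs, adjusted p = 0.0171), where 4.91% of genes were higher and 2.3% lower; the Ndrg1 call was lost without mucosa 1 (2.07, adjusted p = 0.165) or mucosa 3 (2.24, adjusted p = 0.120). Of the dendritic calls over all genes 68.1% were higher with TMM, 56.8% with median-ratio scaling and 37.5% with library totals, and Hk2 and Ndrg1 were called with each. Of the dendritic cell-like cells 90.9% in tumors and 72.4% in mucosa lay in cluster 10, and calls in that cluster alone are not given here. In plasma cell-like cells Pgk1 was lower (-0.69, adjusted p = 0.00638; without mucosa 2, -0.52 and adjusted p = 0.0730), and Vegfa (3.91, adjusted p = 0.00622) and Bnip3 (1.78, adjusted p = 0.0301) were called higher from 2 and 4 mucosa UMIs, where 15.1% of genes were higher and 16.2% lower; without mucosa 1 or 3 the Bnip3 change was 1.25 or 2.08 and was not called, nor was it with library totals (1.13, adjusted p = 0.121). In cluster 12 alone, which held most plasma cells of both tissues, none of the 3 was called, with Vegfa at 3.09 ± 1.05 (SE, adjusted p = 0.0721), Bnip3 at 1.34 (adjusted p = 0.324) and Pgk1 at -0.47 (adjusted p = 0.106), where 4.38% of 8740 genes were higher and 5.1% lower.

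Within tumors, levels by cell class were compared by description only, as mean over 3 mice ± SD over mice. Of the 10 genes, 5 were highest in 1 myeloid class, the Spp1+ macrophage-like cells, of which tumors held 7342 and mucosa 33. Vegfa was at 398 ± 61.4 CPM there and above the next class, C1q+ macrophage-like cells at 186 ± 35.5 CPM, in 10 of 10 tumors. Bnip3 was at 158 ± 43.0 CPM against 86.0 ± 8.06 CPM in C1q+ macrophage-like cells and higher in 9 of 10 tumors. Pgk1 was at 604 ± 44.7 CPM, ahead of absorptive epithelial-like cells at 508 ± 45.3 CPM in 10 of 10 tumors.

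For Slc2a1 and Egln3 the leading classes were not separated beyond their spread. Spp1+ macrophage-like cells had 182 ± 13.3 CPM of Slc2a1 and neutrophil-like cells 174 ± 20.7 CPM, and both were above Ly6c+ monocyte-like cells at 117 ± 5.35 CPM. Egln3 was at 73.8 ± 19.3, 71.4 ± 3.16 and 66.1 ± 10.1 CPM in Spp1+ macrophage-like cells, absorptive epithelial-like cells and epithelial cluster 1. Ndrg1 was at 132 ± 4.75 CPM in fibroblast-like cells and 120 ± 6.48 CPM in Spp1+ macrophage-like cells, a small gap beyond these spreads. The fibroblast-like level rests on 376 cells of 7 tumors.

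Hif1a was highest in T cell-like cells, at 624 ± 54.3 CPM, above Spp1+ macrophage-like cells at 438 ± 37.2 CPM in 10 of 10 tumors. It was at 385 ± 68.2 CPM in Ly6c+ monocyte-like cells and at 12.9 ± 0.576 CPM in plasma cell-like cells, the lowest. In those T cell-like cells Vegfa was at 8.08 ± 1.95 CPM and Bnip3 at 18.5 ± 3.74 CPM, both far under their levels in Spp1+ macrophage-like cells.

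The absorptive epithelial-like cells led for Hk2 (449 ± 126 CPM, above Spp1+ macrophage-like cells in 8 of 10 tumors), for Adm (29.5 ± 22.8 CPM, fibroblast-like cells at 21.5 ± 6.30 CPM not being apart) and for Car9 (60.0 ± 5.90 CPM). For Adm the order turned in the medians over tumors, at 18.8 CPM in absorptive epithelial-like and 20.6 CPM in fibroblast-like cells. Tumor 9 alone reached 84.0 CPM in the absorptive class. Car9 was above goblet-like cells, at 14.4 ± 5.30 CPM, in 9 of 9 tumors, and it was listed at 0 in fibroblast-like cells. The same class in mucosa was at 58.6 ± 3.30 CPM. At 2000 UMIs per cell, Car9 had a UMI in 10.4% of 2498 tumor cells of absorptive cluster 8, against 0.0699% of 18591 cells of neutrophil-like cluster 0, a cell type that should lack it, and 0 of 3400 cells of Spp1+ macrophage-like cluster 11, which allows a share of up to 0.0882% of cells with a UMI at this depth and sets no limit on cells that express the gene. Other macrophage-like cells did hold Car9 UMIs in tumors: C1q+ macrophage-like cells had 351, or 6.62 CPM, close to tumor epithelial-like cells at 6.67 CPM, and Spp1+ macrophage-like cluster 9 had 73, or 2.68 CPM. Without thinning, 5 of 3519 cells of cluster 11 had a Car9 UMI, and the shares in the other two were 48.8% and 0.0891%, at medians of 12919.5 and 2622 UMIs in clusters 8 and 0.

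**Figure D3:**
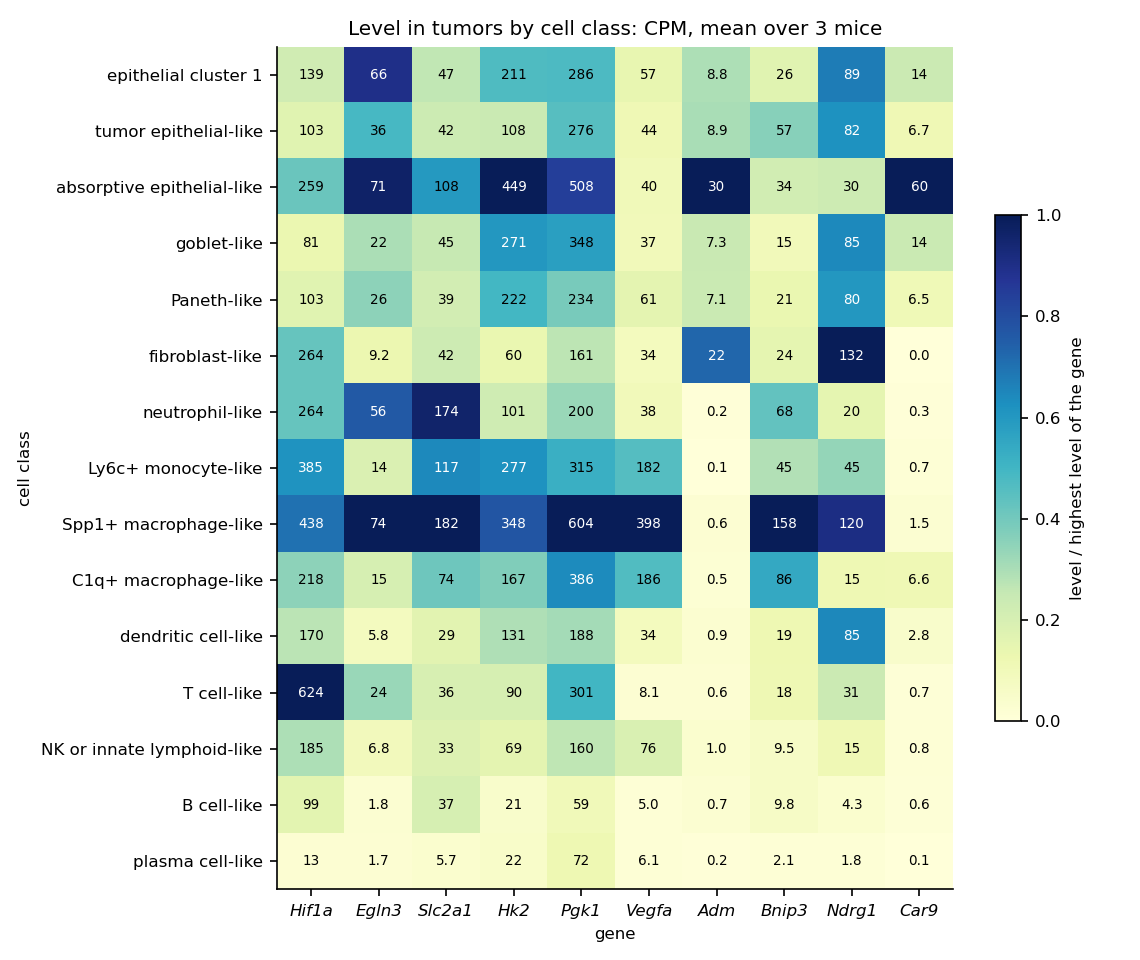
Numbers are CPM in tumors (mean over 3 mice) for 15 cell classes and 10 genes, and color is the level relative to the highest class for that gene. Spp1+ macrophage-like cells are dark for most genes, T cell-like cells are darkest for Hif1a, and absorptive epithelial-like cells are dark for Hk2, Adm, Car9, Egln3 and Pgk1.

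The same classes were not uniform inside. The Spp1+ macrophage-like class was made of cluster 9, led by Dcstamp, Mmp12 and Arg1, and cluster 11, led by Il1a, Csf3 and Nos2; in tumors cluster 11 had 461 CPM of Vegfa, 194 of Bnip3, 114 of Egln3, 244 of Slc2a1, 469 of Hk2 and 176 of Ndrg1, and cluster 9 had 344, 131, 43.3, 133, 249 and 71.7 CPM of the same genes. Neutrophil-like cells were made of cluster 0, led by Retnlg, S100a9 and Cxcr2, and a smaller cluster 17, led by Ccl3 and Csf1. Cluster 17 had 186 CPM of Vegfa, 190 of Bnip3 and 141 of Egln3, and cluster 0 had 29.1, 61.0 and 51.5 CPM. For Slc2a1 and Hif1a the order was the opposite, with 119 and 209 CPM in cluster 17 and 178 and 268 CPM in cluster 0.

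Single cells were then asked whether the genes occur together. Each tumor cell was thinned to 2000 UMIs, and within each cluster the level of every gene was compared between cells with and without a UMI of 1 of the 10 genes, inside each tumor and then pooled over tumors as a ratio. The clusters, index genes and the ratio of 1.5 shown here were chosen after the values were seen, and no test was made. Genes at 10 CPM or more in a cluster were ranked by this ratio, which puts Adm and Car9 below the ranking limit outside absorptive cells.

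Egln3 was close to the top of the Bnip3 ranking in epithelial and in myeloid cells, and outside neutrophil-like cells Bnip3 stood somewhat lower in the Egln3 ranking. In neutrophil-like cluster 0, cells with a Bnip3 UMI had 106 CPM of Egln3 and cells without had 40.6 CPM, a ratio of 2.45 that was above 1 in 10 of 10 tumors and ranked 7 of 4104 genes. Conversely, cells with an Egln3 UMI had 2.58 times the Bnip3 level, rank 4 of 4104. In that direction Bnip3 ranked 36 of 8089 in tumor epithelial-like cluster 3 (ratio 2.65). It ranked 73 of 6319 in Spp1+ macrophage-like cluster 9 (2.11) and 87 of 7397 in absorptive cluster 8 (2.39). Around Bnip3, Egln3 ranked 6 of 8089 in tumor epithelial-like cluster 3 (ratio 2.69), 12 of 8387 in epithelial cluster 1 (2.98), 12 of 5371 in Spp1+ macrophage-like cluster 11 (2.39) and 13 of 6319 in cluster 9 (2.33).

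In neutrophil-like cluster 0 the 6 genes above Egln3 in the Bnip3 ranking were all in the lists of HIF targets and oxygen sensors: Ero1l, an oxidase of protein folding, at 3.20; Egln1, the main prolyl hydroxylase, at 2.92; Higd1a, named for its induction by hypoxia, at 2.82; Fam162a at 2.81; Kdm3a, a histone demethylase, at 2.56; and Mif, a cytokine, at 2.51. The gene at rank 8 was Pfkl, a phosphofructokinase of glycolysis, at 2.43, and Ankrd37 and P4ha1 followed at ranks 9 and 10 with 2.40 and 2.36. In all, 8 of 12 other HIF targets and 8 of 15 glycolysis genes had a ratio of 1.5 or more in these cells, where 3.41% of 4104 genes did. Of the stress genes 2 of 14 reached it. Pgk1 had a ratio of 1.73 and Vegfa of 1.54, whereas Hif1a itself had 1.22 and Slc2a1 1.26.

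In tumor epithelial-like cluster 3, 5 of 7 of the genes considered reached 1.5 in cells with Bnip3, with a median of 1.82, where 3.51% of 8089 genes did. Slc2a1 was at 99.8 CPM with and 38.3 CPM without (ratio 2.59, rank 11), and Pgk1 at 443 and 231 CPM (1.90, rank 53). Car9 and Adm, below the ranking limit, had 30 and 32 UMIs in 581 cells with Bnip3 and 52 and 61 UMIs in 4825 cells without, ratios of 4.66 and 4.51 that were above 1 in 8 of 8 tumors. Other HIF targets reached 1.5 for 8 of 14, among them Ankrd37 at 2.65 (rank 7) and Pgf at 2.56 (rank 12), glycolysis genes for 9 of 15, with Pfkfb3 at 2.49 (rank 14), and stress genes for 0 of 15. In epithelial cluster 1 the count was 6 of 7 with a median of 2.05, where 7.54% of 8387 genes reached 1.5, and Ero1l ranked 4 at 4.76; stress genes reached it for 2 of 15.

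In Spp1+ macrophage-like cluster 11, 2 of 7 reached 1.5 with Bnip3, with a median of 1.44, where 3.93% of 5371 genes did; Gys1, a glycogen synthase, ranked 2 at 3.21. Hif1a had a ratio of 1.02 there, and 0.88 in cells with Egln3. Other HIF targets reached 1.5 for 7 of 15 and stress genes for 0 of 15.

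In absorptive cluster 8 the widest set was seen around Hk2. With an Hk2 UMI, Adm was at 44.2 CPM and without at 10.1 CPM (ratio 3.94, rank 47 of 7397), Slc2a1 at 198 and 66.9 CPM (2.75), Vegfa at 80.4 and 31.4 CPM (2.60) and Egln3 at 139 and 56.8 CPM (2.37), each higher in 10 of 10 tumors. Of 9 genes 8 reached 1.5, with a median of 2.37, but 15% of all genes did in this cluster, as did 6 of 15 stress genes, with a median of 1.45. Pgk1 was the exception at 1.02, and Car9 had 1.69. In the clusters described for Bnip3 the set around Hk2 was narrower. It was 4 of 7 in tumor epithelial-like cluster 3 (3.59% of all genes) and 4 of 7 in epithelial cluster 1 (2.48%). In neutrophil-like cluster 0 it was 2 of 7 (2.66%). In Spp1+ macrophage-like cluster 11 it was 0 of 7 (1.42%), with a median of 1.09. Around Hif1a the count was 4 of 6 in dendritic cell-like cluster 10 (4.69% of all genes), with Vegfa at 2.83 (rank 8 of 6158). C1q+ macrophage-like cluster 6 had 4 of 7 (2.62%), cluster 3 had 2 of 7 (2.11%) and T cell-like cluster 7 had 1 of 6 (2.82%). None reached it in clusters 0 (0%), 1 (0.751%), 2 (0.708%), 8 (4.73%), 9 (2.07%), 11 (1.95%) and 15 (5.72%).

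**Figure D4:**
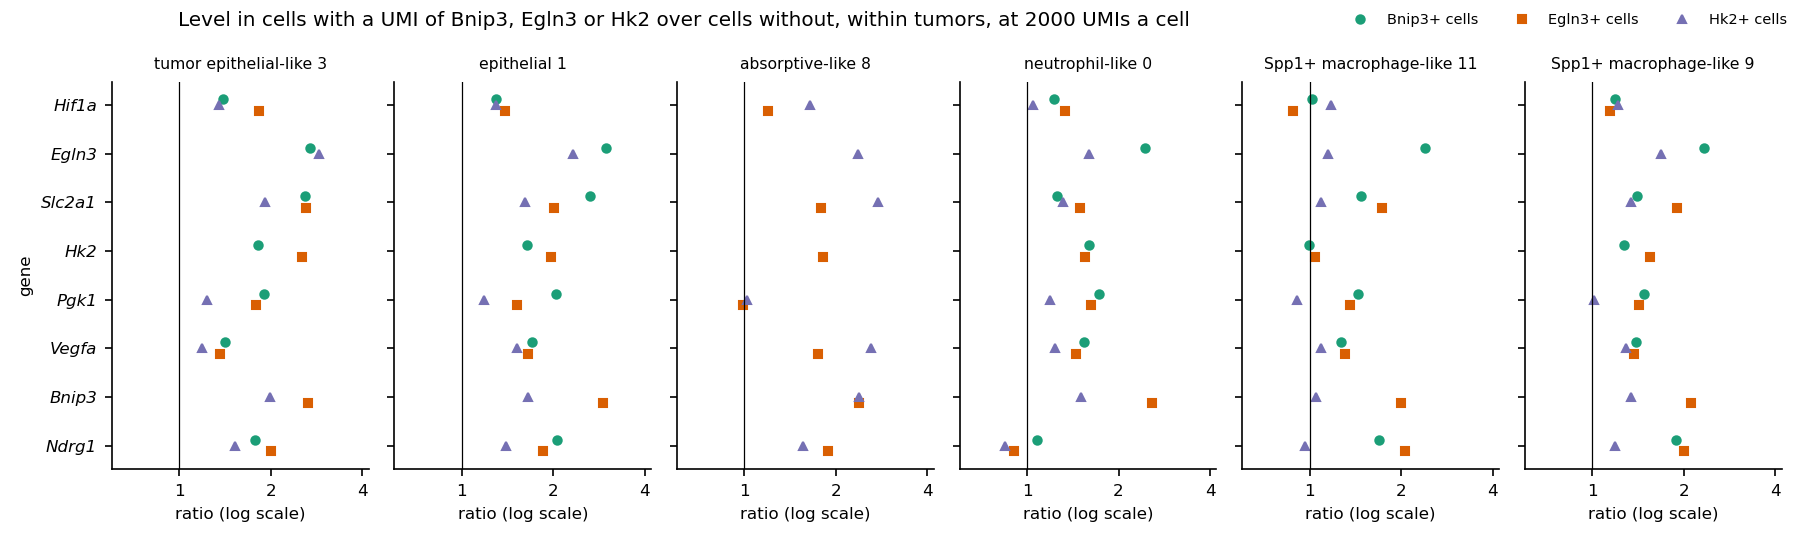
The x axis is the ratio of a gene's level (log axis, 1 marked by a line) in cells with a UMI of Bnip3 (circles), Egln3 (squares) or Hk2 (triangles) over cells without, within tumors and at 2000 UMIs per cell, for 6 clusters. Egln3 in Bnip3 cells and Bnip3 in Egln3 cells lie at 2.0 to 2.98 in the clusters shown, while Hif1a stays between 0.88 and 1.83.

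Across tumors, some of the genes differed between mice in neutrophil-like and Ly6c+ monocyte-like cells. None was called in Spp1+ macrophage-like, C1q+ macrophage-like or tumor epithelial-like cells. The other epithelial cells of tumors, among them epithelial cluster 1 and the absorptive cells, were not tested between mice. In neutrophil-like cells 3 of 8 genes tested were called over the 3 mice, where 10.2% of 9075 genes were, and in Ly6c+ monocyte-like cells 4 of 8, where 7.02% of 9521 genes were. In all-cell sums 0 of 10 were called, where 1.2% of genes were, and in tumor epithelial-like cells 0 of 10, where 0.395% were. In Spp1+ and C1q+ macrophage-like cells 0 of 9 were called, where 6.39% and 4.46% of genes were. At an unadjusted p under 0.05 the counts in these comparisons were, in the same order, 3, 0, 2 and 3. The shares are of calls at the adjusted threshold, so they are no background for the unadjusted counts. The calls between mice are from edgeR alone. With no filter on low counts 2 and 1 genes were called in the Spp1+ and C1q+ macrophage-like cells. The share of all genes called under that setting is not given here, so these counts have no background. A difference in the effect of the mouse between cell classes was not tested.

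Bnip3 in Ly6c+ monocyte-like cells was at 65.5, 63.1, 79.6 and 60.2 CPM in tumors 1 to 4 of mouse C, at 31.7, 23.0, 38.1 and 33.5 CPM in tumors 5 to 8 of mouse A, and at 38 and 36.4 CPM in tumors 9 and 10 of mouse B (adjusted p = 0.0005). The 4 tumors of mouse C were above the other 6 without overlap. In neutrophil-like cells Bnip3 was at 124, 101, 72.8 and 74.2 CPM in mouse C, 43.7, 40.5, 53.0 and 52.0 CPM in mouse A, and 77.0 and 52.8 CPM in mouse B, where tumor 9 overlapped with mouse C (adjusted p = 0.00871). Egln3 in neutrophil-like cells was at 85.7, 71.9, 94.0 and 66.5 CPM in mouse C, above all 6 other tumors (adjusted p = 0.00368). The lowest of those others was at 28.8 CPM, and the means of mice A and B were 41.2 and 48.1 CPM.

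Vegfa followed the same order of means, at 27.6, 30.6 and 55.0 CPM in mice A, B and C in neutrophil-like cells (adjusted p = 0.00882) and at 118, 201 and 227 CPM in Ly6c+ monocyte-like cells (adjusted p = 0.0295). Hif1a in Ly6c+ monocyte-like cells was at 309, 402 and 442 CPM (adjusted p = 0.0131), and Egln3 there at 8.35, 13.1 and 19.7 CPM (adjusted p = 0.0277). The count of 4 in Ly6c+ monocyte-like cells fell to 2 when tumor 4, 6, 7 or 8 was left out. Tumor 6 was the lowest of 10 for Bnip3, Egln3 and Vegfa in both classes. It was also the lowest for these genes in Spp1+ macrophage-like cells, where none was called. Bnip3 there was at 110, 173 and 192 CPM in mice A, B and C (adjusted p = 0.0628, edgeR). Egln3 was at 51.5, 85.8 and 84.0 CPM (adjusted p = 0.167) and Vegfa at 331, 452 and 410 CPM (adjusted p = 0.322). Mouse C was also the youngest of the 3 animals, and animal, age and any handling by animal cannot be told apart. The neutrophil-like sums joined clusters 0 and 17, which differ in these genes. The part of their mix in the differences between mice was not tested.

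**Figure D5:**
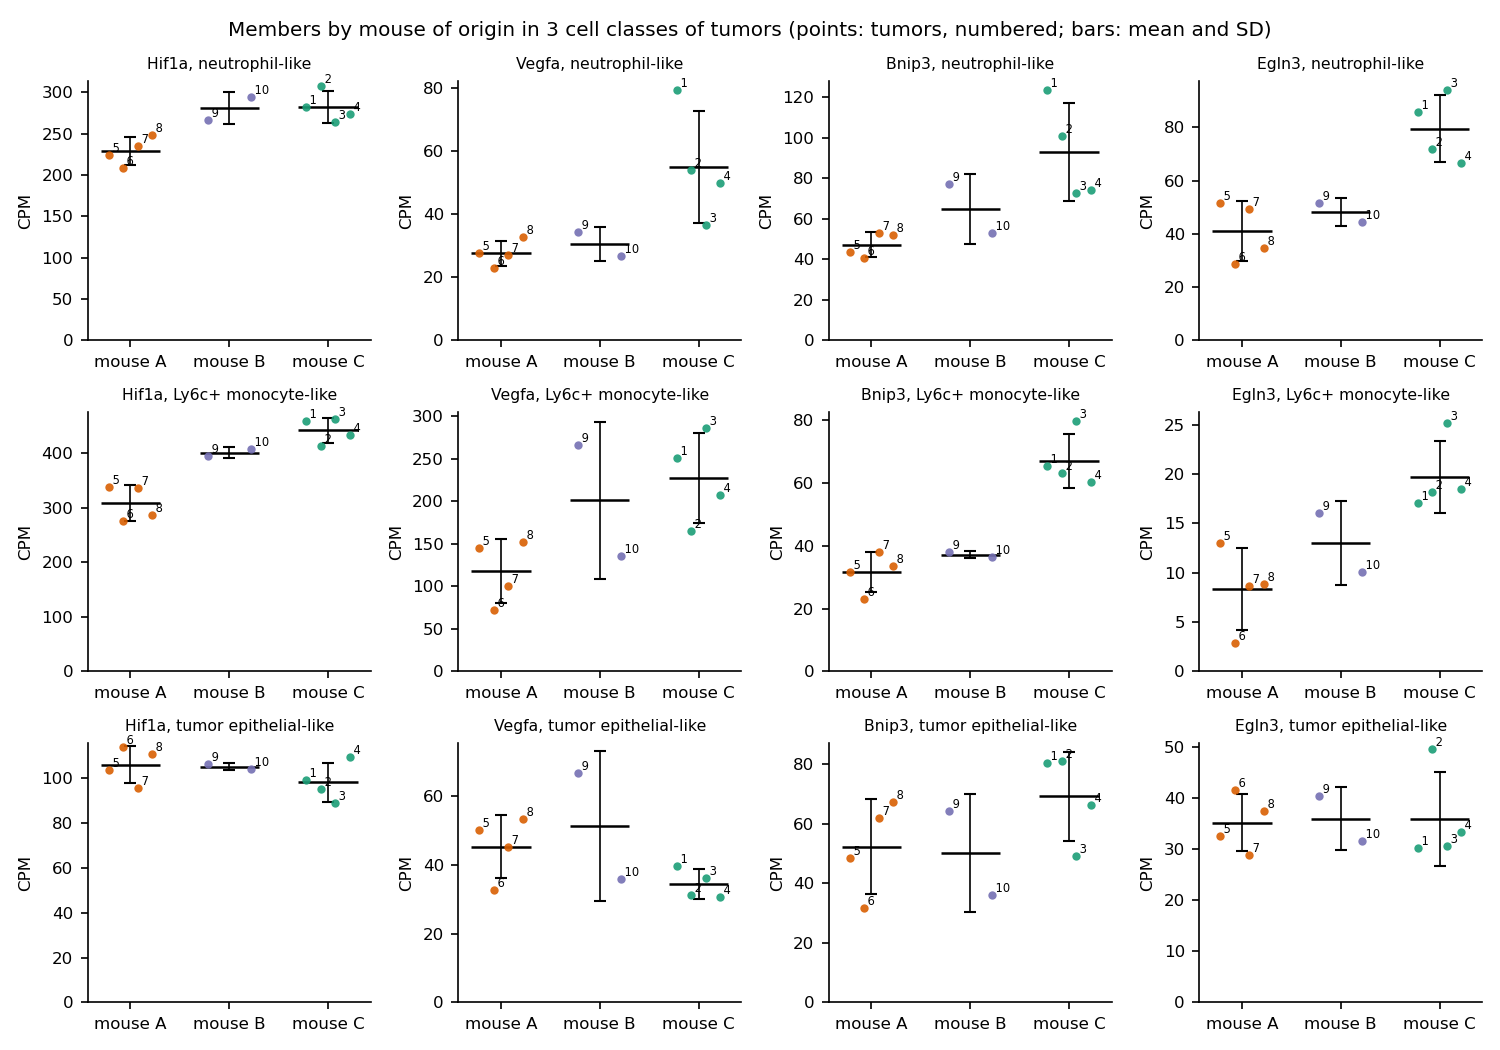
CPM of Hif1a, Vegfa, Bnip3 and Egln3 in neutrophil-like, Ly6c+ monocyte-like and tumor epithelial-like cells, with a numbered point per tumor and bars for mean and SD by mouse (4, 2 and 4 tumors in mice A, B and C). The tumors of mouse C are highest for Bnip3 in Ly6c+ monocyte-like cells and for Egln3 in neutrophil-like cells, and the mice overlap in tumor epithelial-like cells.

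Over 152 sums, each of 1 of 18 cell classes in 1 tumor, the pattern of the genes was set beside that of 7912 other genes, as a description of sums that share libraries. Car9 was most like Dcxr, Rnf128 and Trim15 (Pearson r of 0.833, 0.830 and 0.829), Slc2a1 most like Sdcbp, Sat1 and Pxn (0.879, 0.871 and 0.870) and Vegfa most like Naip2, Lamp1 and Cndp2 (0.792, 0.773 and 0.766). The nearest genes of the other 7 are given here after their values were seen. Pgk1 was most like Gapdh, Aldoa and Ldha (0.949, 0.912 and 0.892), Bnip3 most like Pgam1, Atp6v1e1 and Cstb (0.846, 0.837 and 0.835), Hk2 most like Tpi1, Pgk1 and Gsdmd (0.825, 0.825 and 0.819) and Egln3 most like Pgk1, Tpi1 and Hspa4l (0.764, 0.759 and 0.752). Hif1a was most like Lrrfip1, Clic1 and Eno1 (0.891, 0.881 and 0.878), Adm most like Nr2f2, Ly6c1 and Lama3 (0.862, 0.860 and 0.859) and Ndrg1 most like Errfi1, Bmpr2 and Ctnna1 (0.810, 0.791 and 0.778). Among the 10 genes themselves Hk2 and Pgk1 were most alike (0.82), followed by Bnip3 and Slc2a1 (0.78), and Car9 and Hif1a had an r of 0.02.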

How the data were processed

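Per the labels, cells of 10 colon tumors and 3 adjacent mucosa samples were captured with the Chromium 3′ kit. The submitters' processing notes name Cell Ranger 6.0.0 and mm10; the study's methods name an earlier release. The deposited values are raw UMI counts per gene and barcode, with no normalization by the authors. A barcode counted as a cell if it held 500 or more UMIs from 200 or more genes and its mitochondrial share stayed below 25% (118892 of 137591). From these, 12157 likely doublets, scored against simulated pairs within each library, were removed. The mitochondrial limit was failed by 4.29% to 11.46% of the barcodes of a tumor. In mucosa it was failed by 14.26% to 28.87%, the most in mucosa 2. Cells were clustered (2000 variable genes, 30 components, 20 neighbors, Leiden resolution 1) with 68 genes of the pathway held out, and named from marker lists.

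UMIs were summed per library over all cells, epithelial clusters or a class (at least 20 cells in a library). Sums were tested with edgeR's quasi-likelihood test (4.0.16, R 4.3.3, TMM scaling, low-count filter, Benjamini-Hochberg over all genes tested, threshold 0.05), with DESeq2 (1.42.0) and the settings of the closing section as alternatives. The functions that fit the tests were first run on simulated counts of the all-cell and epithelial sums. Class and cluster sums, the mouse as a block and the other scalings were not simulated. Levels are CPM, and edgeR fold changes are in log2 units. The SE of a fold change was derived from the test, as its absolute value over the square root of the F statistic. Clustering used Python 3.11.15, igraph 0.11.9 and leidenalg 0.10.2. Total UMIs per library set the counting error, and no depth was equalized except in the comparisons of single cells. The deposited counts were made with reads of a 3′ kit, so isoforms were not separated.

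Same-animal libraries are paired by the animal code in the titles. The correlation of tumor and mucosa deviations was 0.117, 0.025 and 0.084 in mice A, B and C over all cells and 0.155, 0.078 and 0.201 in epithelial cells; the design, not these values, pairs them. Genes named besides the 10 follow a rule: up to 4 genes of each list with the largest called epithelial change (1 of them is not reported here), the 3 genes most like Car9, Slc2a1 and Vegfa, and genes chosen after their values were seen in the comparisons of single cells and of patterns. The 10 genes, the lists and the tests were chosen with earlier results of these data known.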

Additional observations from a re-analysis of the deposited data

Results flagged for a closer look

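In 82 groups of tumors, 1 gene in 1 kind of sum each, the highest or lowest tumor was set against the others, and 7 values lay farther from their neighbor than Dixon's limit allows. Chance alone flags about 1 in 20 groups, and the groups share tumors.

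Tumor 10 gave 4 of the 7. Its Hif1a level was 209 CPM in epithelial sums, where the next tumor was at 154 CPM and the lowest at 106 CPM. Its Hk2 level was 264 CPM over all cells (next 192, lowest 132) and 367 CPM in epithelial sums (next 232, lowest 134). Its Egln3 level in C1q+ macrophage-like cells was 24.3 CPM (next 15.6, lowest 9.45).

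In absorptive epithelial-like cells Adm was at 84.0 CPM in tumor 9 (next 29.6, lowest 9.23), and without that tumor the change against mucosa was -0.37 and not called. In the same class Ndrg1 was at 84.9 CPM in tumor 6 (next 37.8, lowest 11.3), which was still below the mucosa samples. In neutrophil-like cells Hk2 was at 191 CPM in tumor 1 (next 118, lowest 67.2).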

How the results depend on the processing

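Over all cells the calls of 5 genes higher and 2 lower were kept in number with median-ratio factors, library totals, no filter, DESeq2 and doublets kept; the number lower was 1 with the tumors of each mouse summed and with a 10% mitochondrial limit, where Adm was also called higher (0.82). With the mouse as a replicate block, which pairs tumors with mucosa of the same animal, 5 and 2 of the 10 genes and 6451 and 6038 of all genes were called higher and lower over all cells, and 6 and 2, 5335 and 4834 in epithelium; the block changed no call among the 10 genes in these 2 comparisons. Epithelial genes lower were 1 with library totals, the tumors of each mouse summed, the 10% limit or doublets kept, and with library totals 3067 of all genes were lower against 4669. Epithelial Hk2, near 0, was 0.25 with library totals, 0.0275 with the replicate block, 0.0786 with summed tumors, 0.0163 with doublets kept and 0.14 without goblet-like cells.

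Within classes, 1 gene was lower in T cells with no filter (14.9% of all genes were); 4 were higher in dendritic cells with no filter (3.13%) or doublets kept (4.76%, against 4.91% with doublets removed); and 6 in plasma cells with doublets kept (16.4%, against 15.1%). With library totals, a scaling added for the classes after seeing the data, 2 genes were higher in absorptive cells (40.1% of all genes were) and 1 in plasma cells (3.48%). With that scaling absorptive Pgk1 was 0.12 and Car9 0.0389, goblet Ndrg1 -0.072, and plasma Hif1a -0.36, Slc2a1 -0.0107 and Hk2 -0.0093. Changes near 0 turned: absorptive Vegfa was -0.0067 with median-ratio factors and -0.0372 with no filter, absorptive Adm -0.0102, -0.0279 and, with the replicate block, -0.16, goblet Ndrg1 -0.0643 with no filter and -0.0352 with the block, and goblet Car9 -0.0202 with the block and -0.28 with doublets kept. In single clusters, chosen after seeing the data, cluster 5 (T cells) had 0 genes higher; cluster 8 (absorptive) had 2 lower, with Adm at -0.26, Bnip3 at -0.42 and Egln3 at -0.0763; cluster 12 (plasma) had 0 higher and 0 lower; cluster 14 (goblet) had 1 higher, with Ndrg1 at -0.0444 and Car9 at -0.0692; and cluster 19 (goblet) had 2 higher, with Pgk1 at -0.0233. Fewer cells and fewer genes were tested there. With no filter 2 genes differed between mice in Spp1+ and 1 in C1q+ macrophage-like cells, without a share of all genes to set beside them. Where no construction is named, the cause was not tested.

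Leaving out 1 library at a time, the number lower over all cells was 1 to 2 (1 without mucosa 2) and in epithelium 1 to 3, with Pgk1 over all cells at -0.27 to 0.0014 and epithelial Hk2 at -0.17 to 0.0784. B cell Hif1a was -0.25 to 0.0755 and Hk2 -0.81 to 0.27; absorptive Adm -0.37 to 0.32, Vegfa -0.11 to 0.17 and genes lower 1 to 2; goblet Car9 -0.0639 to 0.20, Ndrg1 -0.062 to 0.0602 and genes higher 1 to 5; dendritic genes higher 1 to 3 (1 without mucosa 1 or 3); plasma genes higher 1 to 3 and lower 0 to 1. Between mice, 2 to 4 genes were called in Ly6c+ monocyte-like cells and 0 to 1 in Spp1+ macrophage-like cells. The dendritic and plasma cell tests rest on few mucosa UMIs, and Adm and Car9 were too rare to test in T cells.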
